A study of Mus musculus with 16 samples.

Results

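A set of 36 transcripts of the kidney's proximal tubule was followed, array by array, in ribosome-bound RNA of mouse podocytes and glomeruli. A probe was taken when the accession in its array annotation belonged to the gene. All 36 genes were found, with 43 probes, among 20145 named genes on the array, and 34 of them entered the test across 14565 genes. Of the others, Slc7a13 was dim on most arrays and Khk lacked 1 spot, which was marked as outlying. The arrays, 16 in all with 4 in each group, held podocyte RNA of uninjured mice, podocyte RNA 4 days and 7 days after the immunotoxin LMB2, and glomerular RNA of uninjured mice. Every mouse was of the C57BL/6N background and carried Nphs1-RiboTag, in which Cre under the promoter of nephrin, a podocyte protein, adds an HA tag to the ribosomal protein Rpl22. Podocyte RNA came from polysomes precipitated through that tag and glomerular RNA from polysomes that had not been precipitated. The injured mice also carried NEP25, which puts human CD25 on podocytes, and received a single tail vein dose of LMB2, a toxin that binds CD25, of 0.625 ng/gBW. Uninjured mice lacked NEP25, so that NEP25, LMB2 and the scanned slide cannot be told apart between injured and uninjured groups. Neither age nor sex is stated, nor whether arrays come from different animals, so p-values measure the spread between arrays.

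The proximal tubule follows directly on Bowman's capsule and takes back most of the filtered sodium, phosphate, glucose, amino acids and small proteins. Its cells carry a brush border of transporters and peptidases on the side of the urine, endocytic receptors beneath it, and organic ion transporters on the side of the blood. They also make glucose and are rich in enzymes of fatty acid and drug metabolism. The transcription factors HNF1 and HNF4 are known activators of many of these genes. Fragments of tubule commonly accompany isolated glomeruli, and these transcripts are often followed as a measure of RNA carried along with the cells of interest. In bulk RNA of this kind, fewer tubule cells and less tubule RNA per cell cannot be told apart.

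Levels are log2 processed intensities after subtraction of the array's 75th percentile, so that a level of 0 equals that percentile. The share of spots well above background ran from 49.3% to 57.5% over the arrays, with no saturated spot. All 19 measured podocyte markers were higher in normal podocyte than in glomerular RNA, with a median difference of 2.36. No group was labelled as tubule, and glomerular RNA, although labelled as glomerular cells, held all 34 tested members well above background on all 4 arrays. All 34 would have passed the filter through that group, and Slc22a8, an organic anion transporter, passed through it alone. Podocyte RNA held most of them too: 33 of the 34 were well above background on all 4 normal podocyte arrays, 32 at day 4 and 33 at day 7. Slc22a8 was the member missed in each podocyte group, being well above background on 2, 2 and 1 of the 4 arrays in normal, day 4 and day 7 podocytes. Napsa, an aspartic protease, was missed on 1 of the 4 arrays at day 4.

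In each podocyte group 1 array stood apart. Relative to the mean of the normal podocyte arrays, the mean of the members was -0.56, -0.21, -0.34 and 1.1 on normal podocyte arrays 1 to 4. It was 1.54, -1.63, -1.33 and -0.62 on the day 4 arrays, and -1.17, -0.50, -0.17 and 2.08 on the day 7 arrays. Glomerular arrays lay at 3.64, 3.54, 2.44 and 3.99. Array 4 of normal podocytes, array 1 of day 4 and array 4 of day 7 were thus the high ones, and the podocyte groups overlapped one another while none reached the glomerular range. On normal array 4 all 34 members were above their group mean, and so they were on day 4 array 1 and on day 7 array 4. On day 4 arrays 2 and 3 all 34 were below it. The summed level of the members, in multiples of each array's 75th percentile, ran from 83.3 to 292 in normal podocytes, from 36.7 to 381 at day 4, from 48.7 to 571 at day 7, and from 776 to 1839 in glomeruli.

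**Figure D1:**
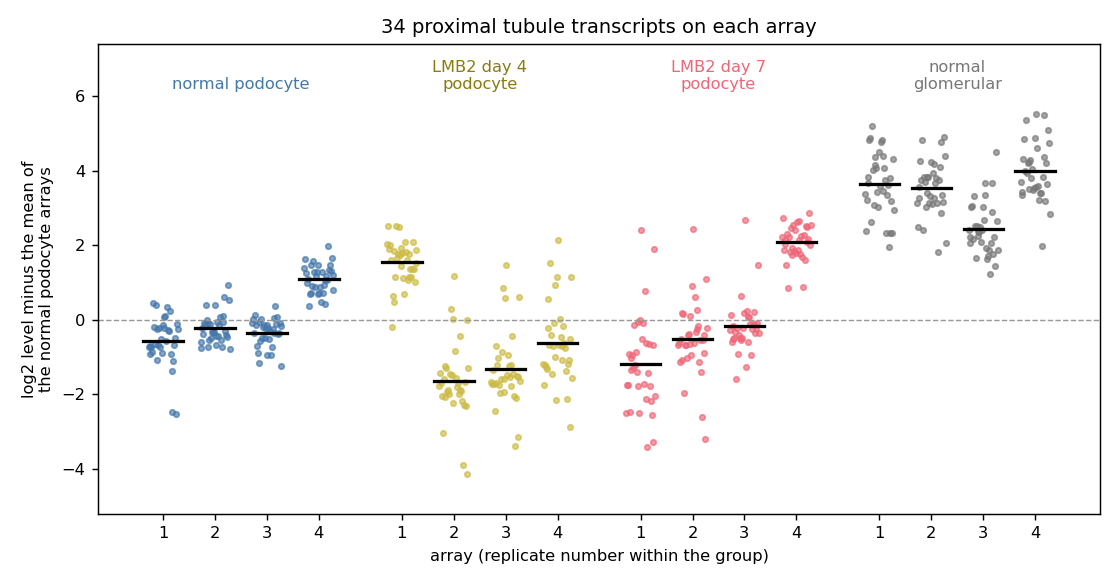
Each point is 1 of 34 proximal tubule transcripts on 1 array, as its log2 level minus its mean on the normal podocyte arrays. Black bars are array means, which run from -1.63 to 2.08 on podocyte arrays and from 2.44 to 3.99 on glomerular arrays, with 1 high array in each podocyte group.

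The members were far less steady within a group than other genes were. Their median standard deviation over 4 arrays was 0.85 in normal podocytes, 1.63 at day 4, 1.47 at day 7 and 0.77 in glomeruli, against 0.21, 0.18, 0.21 and 0.19 for all 14565 genes. Of the 34, 19 exceeded the 95th percentile of all genes' standard deviations in normal podocytes, 29 at day 4, 31 at day 7 and 20 in glomeruli. Over the 12 podocyte arrays, centred on their group means, 26 of the 34 had a Pearson r above 0.9 with the mean of all 34. Each member is itself part of that mean. These arrays share their scaling, and the r values are a description only. Against the mean of the other members only, Ass1, an enzyme of arginine synthesis, followed most closely (r = 0.99), and Anpep (r = 0.47) and Ttc36 (r = 0.58) least.

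Stretches of promoter are shown as a description, because HNF1 and HNF4 are known regulators of this programme. Whether these motifs bear on how the members moved from array to array was not tested. RefSeq (GRCm38.p6) gave a window of 250 bases before to 50 after the start for 30 of the 36 members. The letters GTTAAT, the core of an HNF1 half-site, stood on either strand in 10 of these 30 (33.3%), against 8.24% of 27025 genes with a window. Those were Slc34a1, Slc22a6, Slc22a8, Slc3a1, Pck1, G6pc, Khk, Miox, Acsm2 and Hnf4a. Among windows under 50% G and C it stood in 4 of 11 members (36.4%) and 13.5% of 11461 genes, and the median G and C content was 52.7% for members and for all genes. The HNF4 core CAAAGTCCA, on either strand, stood in Slc3a1 and Pdzk1, 2 of 30 (6.67%), against 0.555% of genes. In the sequences, which run 5′ to 3′ along the gene, capitals mark GTTAAT or its reverse complement ATTAAC, or CAAAGTCCA in Slc3a1. The stretches are Slc34a1 (chr13:55399549-55399638, plus strand), Slc22a6 (chr19:8617886-8617975, plus strand), Slc3a1 (chr17:85028257-85028346, plus strand), G6pc (chr11:101367466-101367555, plus strand), Hnf4a (chr2:163547064-163547153, plus strand) and Anpep (chr7:79848211-79848300, minus strand). Anpep is shown as the member that departed most from the rest, and its stretch of 90 bases before the start held neither motif. That is not particular to Anpep: GTTAAT was missing from the windows of 20 of the 30 members, among them Ass1, which followed the others most closely. These matches describe letters and are not evidence of binding.
Slc34a1: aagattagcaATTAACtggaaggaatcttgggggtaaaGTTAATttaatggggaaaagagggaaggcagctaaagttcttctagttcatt
Slc22a6: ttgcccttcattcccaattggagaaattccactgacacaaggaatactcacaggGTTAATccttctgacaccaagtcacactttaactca
Slc3a1: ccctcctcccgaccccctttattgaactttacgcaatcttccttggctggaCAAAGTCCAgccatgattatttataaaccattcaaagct
G6pc: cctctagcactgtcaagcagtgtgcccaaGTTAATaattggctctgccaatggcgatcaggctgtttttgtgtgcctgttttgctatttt
Hnf4a: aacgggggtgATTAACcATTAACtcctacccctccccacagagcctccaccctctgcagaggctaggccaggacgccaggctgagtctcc
Anpep: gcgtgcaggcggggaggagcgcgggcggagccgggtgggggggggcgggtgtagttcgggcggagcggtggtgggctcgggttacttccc

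Podocyte RNA was first set against glomerular RNA of uninjured mice, both scanned on the same slide, to ask how far the precipitation removed tubule transcripts. Slc22a8 had entered the test through the glomerular arrays alone, so its place among the lower members is set by the filter and nothing is read from it. All 34 members tested, or 33 without Slc22a8, were lower in podocyte RNA, from -1.84 for Gatm to -4.60 for Slc22a6 on the log2 scale, with a median of -3.33. Among all genes tested 27.5% were called lower and 51.6% higher, and the median was 0.38 (limma, adjusted p under 0.05 over 14565 genes). The reduction was not particular to the members. Medians were -4.28 for leukocyte, -4.22 for red blood cell, -4.09 for endothelial and -3.88 for distal nephron markers. They were -3.49 for mesangial and smooth muscle, -2.44 for tubule injury and -1.02 for parietal epithelial markers. The arrays of the groups did not overlap for 33 of the 34, a count that includes Slc22a8, against 25.2% of all genes that lay wholly lower. Cyp2e1 was the exception. Leaving out 1 array at a time gave 31 to 34 lower members. The call of Slc5a2 was lost without normal podocyte array 1 or 2 or glomerular array 4, those of Gatm and Spp2 without normal podocyte array 2 or glomerular array 1, that of Cyp2e1 without normal podocyte array 1 or glomerular array 4, and that of Acsm2 without normal podocyte array 1 (adjusted p from 0.0511 to 0.0729). Arrays of the same number deviated together in these 2 groups, and within the 4 same-numbered pairs all 34, or 33 without Slc22a8, were lower every time. With the number as a block in the 8 arrays of the slide, a fit chosen after the data were seen, adjusted p ran from 1.74e-05 to 0.00135 over the 34. The values that follow are log2 levels in the order of arrays 1 to 4, with limma's difference ± SE and its Benjamini-Hochberg adjusted p.

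Carriers of sodium-coupled solutes in the brush border and basolateral membrane were all lower, 6 of 6. Slc17a3, an organic anion and phosphate carrier, was the furthest down of these and had log2 levels of -1.84, -1.08, -1.13 and 0.11 on the normal podocyte arrays, against 2.84, 3.28, 2.08 and 3.87 on the glomerular arrays, a difference of -4.00 ± 0.98 (adjusted p = 0.00168). Slc5a2, the glucose transporter SGLT2 of the early tubule, was the least reduced and had log2 levels of 1.60, 1.77, 2.55 and 4.15 on the normal podocyte arrays, against 4.89, 5.01, 4.73 and 5.86 on the glomerular arrays, a difference of -2.61 ± 1.00 (adjusted p = 0.0274). Array 4 was the highest of both groups for SGLT2. Slc34a1, the main phosphate transporter of the brush border, had log2 levels of 2.60, 2.74, 3.25 and 4.73 on the normal podocyte arrays, against 6.70, 6.47, 5.73 and 7.03 on the glomerular arrays, a difference of -3.15 ± 0.94 (adjusted p = 0.00652). Between these lay Slc13a3, a carrier of dicarboxylates, Slc17a1, a phosphate and urate carrier, and Slc5a12, a lactate transporter, at -3.69 ± 0.63, -3.64 ± 0.81 and -2.99 ± 0.82.

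Among the transporters of organic anions and fatty acids, Slc22a6, Slc22a7 and Slc27a2 were lower, and nothing is read from Slc22a8. Slc22a6, the anion exchanger OAT1 of the basolateral membrane, had log2 levels of -0.39, 0.21, -1.08 and 0.51 on the normal podocyte arrays, against 4.69, 4.63, 3.14 and 5.17 on the glomerular arrays, a difference of -4.60 ± 0.72 (adjusted p = 3.80e-05). That was the greatest reduction of any member. Slc22a7, the related OAT2, had log2 levels of -2.96, -2.30, -2.36 and -1.59 on the normal podocyte arrays, against 0.33, 0.10, 0.20 and 1.62 on the glomerular arrays, a difference of -2.87 ± 0.56 (adjusted p = 0.000298). Slc27a2, a fatty acid transporter and acyl-CoA synthetase, stood between them at -3.61 ± 0.70. Slc22a8, the anion exchanger OAT3, had a fitted difference of -3.73 ± 0.96, but only 2 of its 4 normal podocyte arrays measured it above background.

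Both tested amino acid carriers were lower. Slc3a1, the heavy subunit of the cystine transporter, had log2 levels of -2.54, -1.99, -2.36 and -0.60 on the normal podocyte arrays, against 2.50, 1.95, 0.52 and 2.41 on the glomerular arrays, a difference of -3.72 ± 0.77 (adjusted p = 0.000471). Slc6a19, the carrier of neutral amino acids, had log2 levels of -2.0, -1.47, -0.90 and 0.64 on the normal podocyte arrays, against 2.15, 2.10, 1.30 and 2.57 on the glomerular arrays, a difference of -2.96 ± 0.98 (adjusted p = 0.0125). The groups stayed apart for both, although normal podocyte array 4 came within 1 log2 unit of glomerular array 3 for Slc6a19. Slc7a13, a carrier of the last, straight segment of the tubule, was not tested: it was well above background on 1 of the 4 normal podocyte arrays and on 3 of the 4 glomerular arrays. Its levels were -7.48, -5.50, -6.79 and -2.78 on the normal podocyte arrays and -5.88, -0.98, -1.58 and 1.58 on the glomerular arrays.

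All 3 genes of protein uptake and of the brush border scaffold were lower. Cubn, the receptor cubilin, had log2 levels of -1.25, -0.85, -0.68 and 0.64 on the normal podocyte arrays, against 3.54, 3.29, 1.96 and 3.51 on the glomerular arrays, a difference of -3.61 ± 0.62 (adjusted p = 8.25e-05). Pdzk1, which anchors transporters in the brush border, had log2 levels of 1.90, 2.09, 1.93 and 3.70 on the normal podocyte arrays, against 5.83, 5.54, 4.48 and 5.90 on the glomerular arrays, a difference of -3.03 ± 0.79 (adjusted p = 0.00275). Lrp2, the receptor megalin, stood at -3.43 ± 0.72, close to cubilin, with which it works.

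The peptidases and proteases, 4 of 4, were lower as well. Napsa, napsin A, had log2 levels of -2.81, -3.04, -2.82 and -1.71 on the normal podocyte arrays, against 2.17, 1.34, 1.08 and 2.94 on the glomerular arrays, a difference of -4.48 ± 0.67 (adjusted p = 2.38e-05). Dpep1, a dipeptidase of the brush border, had log2 levels of -1.35, -0.80, -0.70 and 1.00 on the normal podocyte arrays, against 2.57, 2.86, 1.96 and 3.07 on the glomerular arrays, a difference of -3.07 ± 1.00 (adjusted p = 0.0115). Napsa and Slc22a6 were the members reduced most. Ggt1, which begins the breakdown of glutathione, and Anpep, aminopeptidase N, stood at -4.16 ± 0.49 and -3.24 ± 0.28. Aqp1, the water channel of the proximal tubule, which descending thin limbs and some endothelium also carry, had log2 levels of 0.28, 0.10, -0.36 and 0.64 on the normal podocyte arrays, against 4.98, 4.36, 3.52 and 4.78 on the glomerular arrays, a difference of -4.24 ± 0.52 (adjusted p = 3.47e-06).

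Enzymes of glucose and creatine synthesis were lower, 6 of 6. G6pc, the last enzyme of glucose release, had log2 levels of 1.15, 1.51, 0.70 and 2.37 on the normal podocyte arrays, against 5.52, 5.23, 3.15 and 4.84 on the glomerular arrays, a difference of -3.25 ± 0.80 (adjusted p = 0.00176). Gatm, the first enzyme of creatine synthesis, had log2 levels of 2.31, 1.36, 2.13 and 2.51 on the normal podocyte arrays, against 4.41, 3.89, 3.32 and 4.05 on the glomerular arrays, a difference of -1.84 ± 0.67 (adjusted p = 0.0205), the smallest reduction of any member. Pck1 and Fbp1 of gluconeogenesis, Ass1, and Miox, which breaks down myo-inositol, ran from -3.25 ± 0.84 for Ass1 to -3.05 ± 0.75 for Miox. Khk, the kinase that traps fructose, was measured on 15 arrays, and a fit that allowed the missing spot gave -2.20 ± 0.38 (adjusted p = 0.000135).

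Of the enzymes of fatty acid and drug metabolism 4 of 4 were lower. Cyp4b1, a cytochrome P450, had log2 levels of 0.60, 1.92, 2.36 and 3.06 on the normal podocyte arrays, against 5.60, 6.07, 5.66 and 6.36 on the glomerular arrays, a difference of -3.94 ± 0.77 (adjusted p = 0.000274). Acsm2, an acyl-CoA synthetase, had log2 levels of 2.30, 3.08, 3.46 and 4.72 on the normal podocyte arrays, against 5.73, 6.26, 5.15 and 6.58 on the glomerular arrays, a difference of -2.54 ± 0.88 (adjusted p = 0.0158). Cyp2e1, another cytochrome P450, overlapped between the groups, with -1.86, 1.24, 0.49 and 2.58 on the normal podocyte arrays and 2.56, 5.39, 3.50 and 6.11 on the glomerular arrays (difference -3.78 ± 1.32, adjusted p = 0.0167). Podocyte array 4 was level with glomerular array 1 there, and array 1 was the lowest array of both groups. Between arrays of the same number the difference was -4.42, -4.15, -3.01 and -3.53, so that every pair was lower. Keg1, a glycine acyltransferase family member, was at -3.40 ± 0.99.

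The last members were a regulator and 3 transcripts with little else in common. Hnf4a, a transcription factor that maintains the proximal tubule programme, had log2 levels of 0.77, 0.78, 0.89 and 2.57 on the normal podocyte arrays, against 4.45, 4.40, 2.70 and 4.89 on the glomerular arrays, a difference of -2.86 ± 0.79 (adjusted p = 0.00416). Kap, the androgen-regulated kidney protein, had log2 levels of 0.96, 4.43, 3.41 and 5.16 on the normal podocyte arrays, against 5.82, 8.39, 8.0 and 8.58 on the glomerular arrays, a difference of -4.20 ± 1.40 (adjusted p = 0.0131). Array 1 was the lowest array of both groups for Kap. Spp2, a secreted phosphoprotein, had log2 levels of 2.0, 1.45, 2.07 and 3.44 on the normal podocyte arrays, against 5.19, 4.30, 4.11 and 5.08 on the glomerular arrays, a difference of -2.43 ± 0.89 (adjusted p = 0.0215), and Ttc36, a repeat protein of liver and kidney, stood at -4.03 ± 0.50.

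Shares of the glomerular level differed from member to member, and no test compared the members with one another. As a share of the mean glomerular level, the median member stood at 9.98% in normal podocyte RNA, 7.66% at day 4 and 9.42% at day 7. In normal podocytes the shares ran from 4.12% for Slc22a6 through 4.48% for Napsa and 5.29% for Aqp1 to 17.2% for Acsm2, 18.6% for Spp2 and 28.0% for Gatm, a spread of 6.79-fold. By array, Gatm held 32.9%, 17.0%, 29.0% and 37.7% on normal podocyte arrays 1 to 4, and Slc22a6 held 3.59%, 5.42%, 2.22% and 6.68%. Gatm was thus above Slc22a6 on each of the 4 arrays. Each share is the ratio of 2 levels of 1 probe, but the order of members compares ratios from different probes. For 2 probes of 1 gene the log2 difference could vary, as for Slc17a3 (-4.00 and -3.34), or be alike, as for Pdzk1 (-3.03 and -3.04). All shares use the same 4 glomerular arrays.

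Part of the order of the shares was also seen on the high arrays, of which normal podocyte array 4 is itself in the normal podocyte mean. Among the 6 members of highest share on each of the 3 high arrays, Slc5a2, Spp2 and Slc6a19 appeared every time. Slc5a2 held 50.8% on normal podocyte array 4, 94.3% on day 4 array 1 and 109% on day 7 array 4. Spp2 held 42.8%, 68.5% and 108% on the same arrays, and Slc6a19 held 38.1%, 73.5% and 71.2%. SGLT2 and Spp2 on day 7 array 4 thus reached the mean level of unprecipitated glomerular RNA. Among the 6 of lowest share, Slc13a3, Ggt1, Aqp1, Napsa and Slc22a6 appeared on all 3 arrays. Slc22a6 held 6.68%, 6.48% and 20.2%, and Aqp1 held 7.34%, 8.48% and 23.3%. Other members changed place: Gatm, the first of the 34 in normal podocytes, ranked 5, 4 and 11 on the 3 arrays, Acsm2 ranked 2, 10 and 4, and Kap, which ranked 31 in normal podocytes, reached rank 18 on 1 of them. These arrays were singled out after their values were seen, and no test was made of the order.

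**Figure D2:**
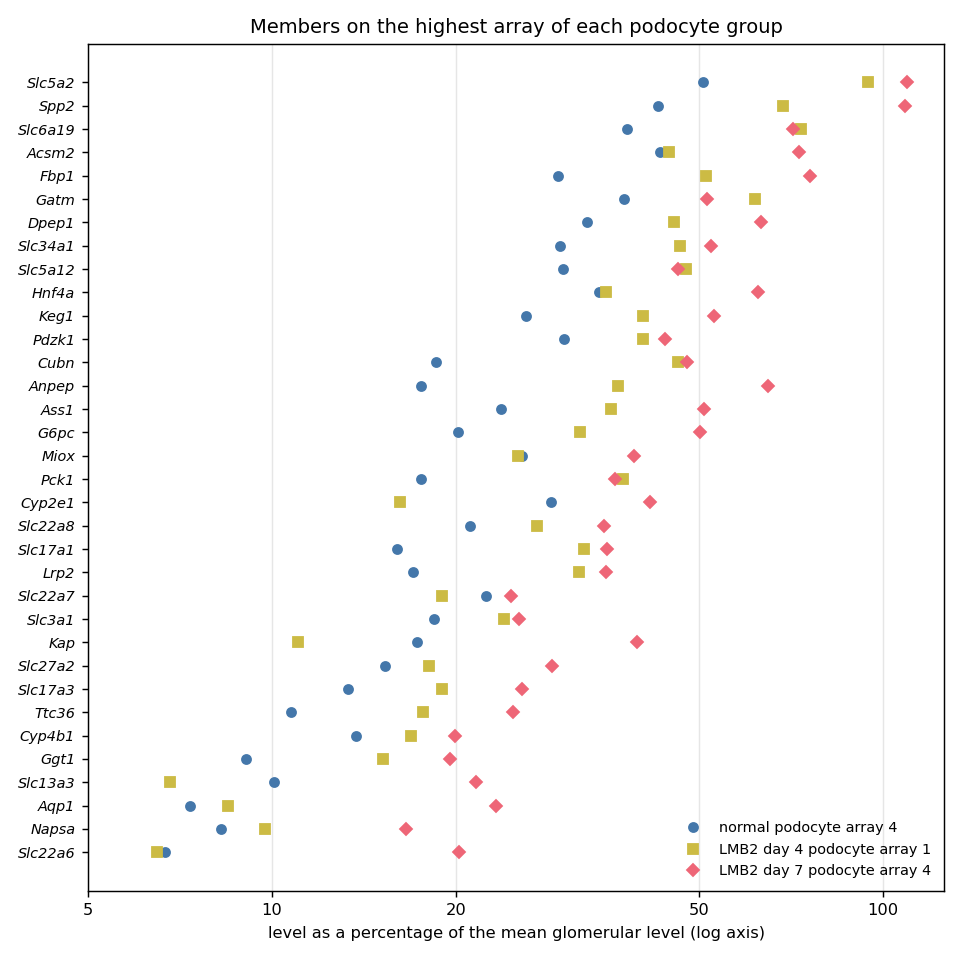
The level of each of 34 members, as a percentage of its mean on the glomerular arrays (log axis), on the highest array of each podocyte group. Slc5a2 runs from 50.8% to 109% over the 3 arrays and Slc22a6 from 6.48% to 20.2%.

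Podocyte RNA after LMB2 was set against normal podocyte RNA to ask whether tubule transcripts changed in the injured podocyte preparations. At day 4, 1 of the 34 members rose, Anpep, and 0 fell, where 12.4% of all genes were called higher and 19.9% lower. The median member difference was -0.59, against -0.12 for all genes. At an unadjusted p under 0.05, which 42.5% of all genes passed, Anpep alone of the 34 did so. At day 7 Anpep and Ttc36 rose and 0 fell, where 21.6% of all genes were called higher and 36.7% lower, and the median was -0.03 against -0.14. Those 2 were also the ones that passed at an unadjusted p under 0.05, against 62.7% of all genes. With each array's median set to 0 in place of its 75th percentile, the median of all genes moved by -0.26 at day 4 and by -0.32 at day 7. The share of genes called was then 8.1% higher and 39.9% lower at day 4, and 13.5% higher and 50.7% lower at day 7. The members' calls did not differ under that scaling. The members' median minus that of all genes was -0.46 at day 4 and 0.12 at day 7, which a shift of whole arrays cannot change. Both normal groups were on slide 1 and both LMB2 groups on slide 2, so slide and treatment cannot be told apart here.

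The intervals were wide, and a missed threshold does not show that a member was level. Slc34a1 had 2.60, 2.74, 3.25 and 4.73 on the normal podocyte arrays, 5.38, 1.56, 1.65 and 2.15 at day 4 and 0.82, 2.67, 3.06 and 5.55 at day 7. Its difference was -0.64 ± 0.94 at day 4 (95% interval -2.65 to 1.36) and -0.31 ± 0.94 at day 7 (-2.31 to 1.70), with adjusted p of 0.639 and 0.802. Each group held both low and high arrays, and all 3 overlapped. Kap had the lowest estimate of all 14565 genes at day 4, at -2.28 ± 1.40, yet with an adjusted p of 0.235. Its levels were 4.52, -0.65, 0.35 and 0.61 at day 4, against 0.96, 4.43, 3.41 and 5.16 in normal podocytes.

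The counts depended on the high arrays. Without normal podocyte array 4, day 4 array 1 and day 7 array 4, an alternative chosen after the data were seen, 5 members fell at day 4, namely Cyp4b1, Dpep1, Slc17a1, Slc17a3 and Slc6a19. Anpep was still higher there (1.84). The median at day 4 was then -0.99. Gatm and Slc22a7 fell at day 7 in that alternative, with a median of -0.35, and Anpep (2.75) and Ttc36 (1.75) were still higher. The share of all genes called in that alternative is not given here. In the fit with all arrays 19.9% of all genes were called lower at day 4 and 36.7% at day 7. That fit holds other arrays, so nothing about the members as a set is read from these counts. Without day 4 array 1 alone Cyp4b1 fell at day 4, and without day 7 array 4 alone Gatm and Slc22a7 fell at day 7.

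Anpep, aminopeptidase N of the brush border, differed from the other members. Its levels were -0.69, -1.44, -0.89 and -0.03 on the normal podocyte arrays, 1.04, 0.40, 0.71 and 1.39 at day 4 and 1.65, 1.69, 1.90 and 1.85 at day 7. Every day 4 array lay above every normal podocyte array (as for 12.1% of all genes), every day 7 array above every normal podocyte array (17.6%) and every day 7 array above every day 4 array (12.3%). Day 4 was above normal by 1.65 ± 0.28 (limma, adjusted p = 0.000509), a rise present with every alternative that was run, from 1.38 to 1.89. Day 7 was above normal by 2.54 ± 0.28 (adjusted p = 3.44e-06), from 2.22 to 2.78 over the alternatives. As a share of the glomerular mean it held 11.1%, 6.63%, 9.66% and 17.5% on the normal podocyte arrays, 36.9%, 23.7%, 29.2% and 46.9% on the day 4 arrays and 56.4%, 57.6%, 67.1% and 64.8% on the day 7 arrays. The day 7 standard deviation of 0.12 was the smallest of any member in that group, and day 7 array 4, where the others stood high, was level with array 3.

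Ttc36 rose at day 7. Its levels were -2.71, -2.08, -3.83 and -1.79 in normal podocytes, -1.07, -2.59, -1.97 and -1.45 at day 4 and -0.71, -1.51, -1.14 and -0.59 at day 7. The day 7 and normal arrays did not overlap, while day 4 overlapped both. The rise was 1.62 ± 0.50 (adjusted p = 0.0119), and it missed the threshold with normexp correction and quantile scaling (0.82, adjusted p = 0.0592). Day 4 stood at 0.83 ± 0.50 over normal, with an adjusted p of 0.222. Cubn, at 1.14 ± 0.62 (adjusted p = 0.175), and Ggt1, at 0.80 ± 0.49 (adjusted p = 0.228), lay on either side of it at day 4 and were not called.

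**Figure D3:**
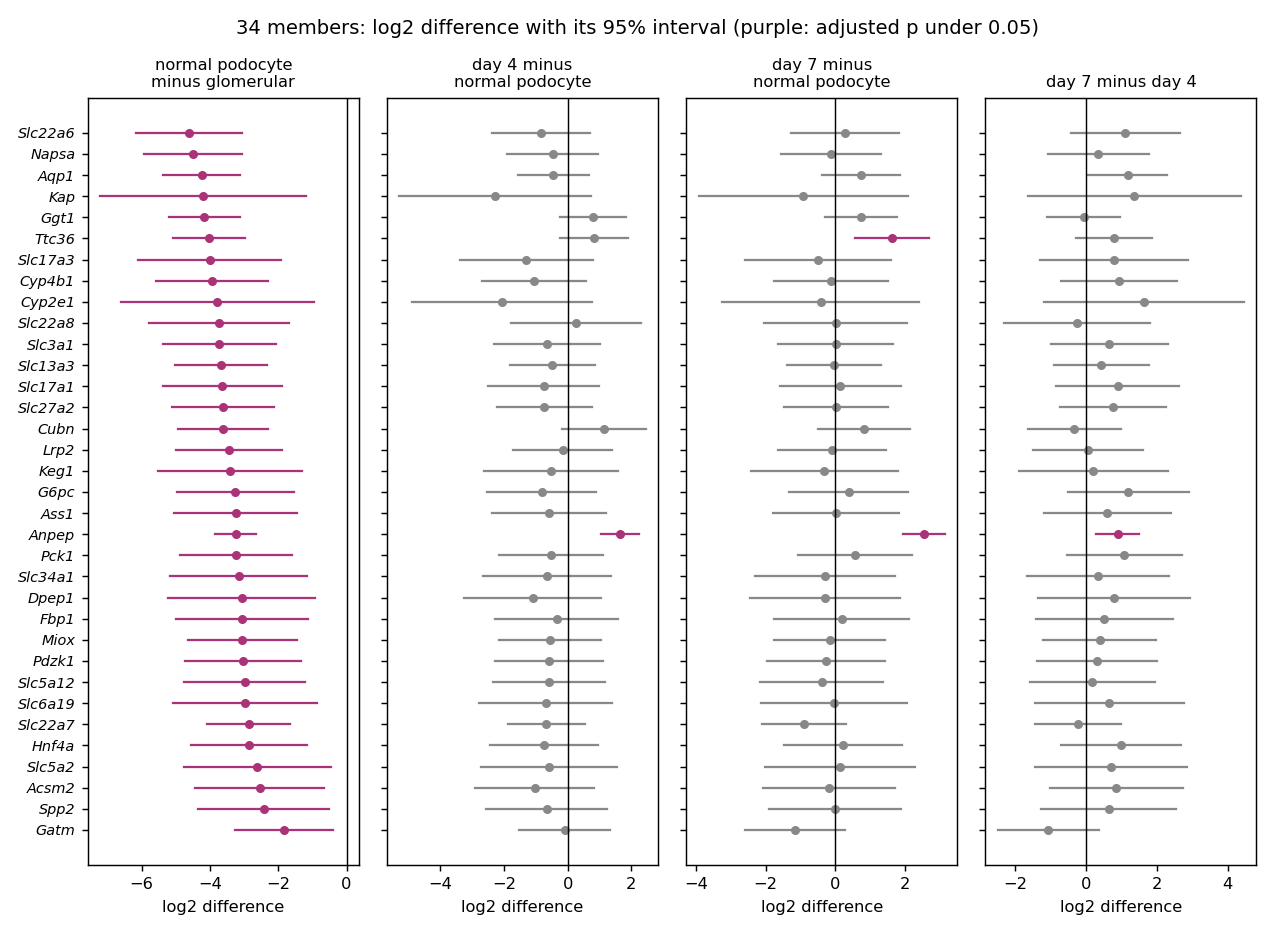
Log2 differences of the 34 members in 4 comparisons, as points with 95% intervals from the fit across 14565 genes. All 34 lie below 0 for podocyte minus glomerular RNA, and Anpep and Ttc36 alone are called after LMB2.

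Day 7 was then set against day 4, within slide 2, where the days lay in different rows of the slide and cannot be told apart from row. Anpep was higher by 0.89 ± 0.28 (adjusted p = 0.0248) and 0 members were lower, where 13.2% of all genes were called higher and 20.7% lower. The median difference was 0.65, against -0.07 for all genes, and leaving out 1 array at a time moved the members' median between -0.13 and 1.38, so that its direction rests on single arrays. At an unadjusted p under 0.05, which 44.1% of all genes passed, 2 members did so. The second was Aqp1, at 1.17 ± 0.52 (adjusted p = 0.0972). Its levels were 0.07, 0.77, 0.42 and 2.31 at day 7 and 0.85, -1.40, -0.77 and 0.19 at day 4, which overlapped. Without day 4 array 1 the count of higher members was 6, adding Aqp1, Cyp4b1, G6pc, Pck1 and Slc17a1. The call for Anpep was lost without day 4 array 2 or 3 or day 7 array 3 or 4 (adjusted p from 0.0518 to 0.0828) and with array medians set to 0 (0.0512).

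**Figure D4:**
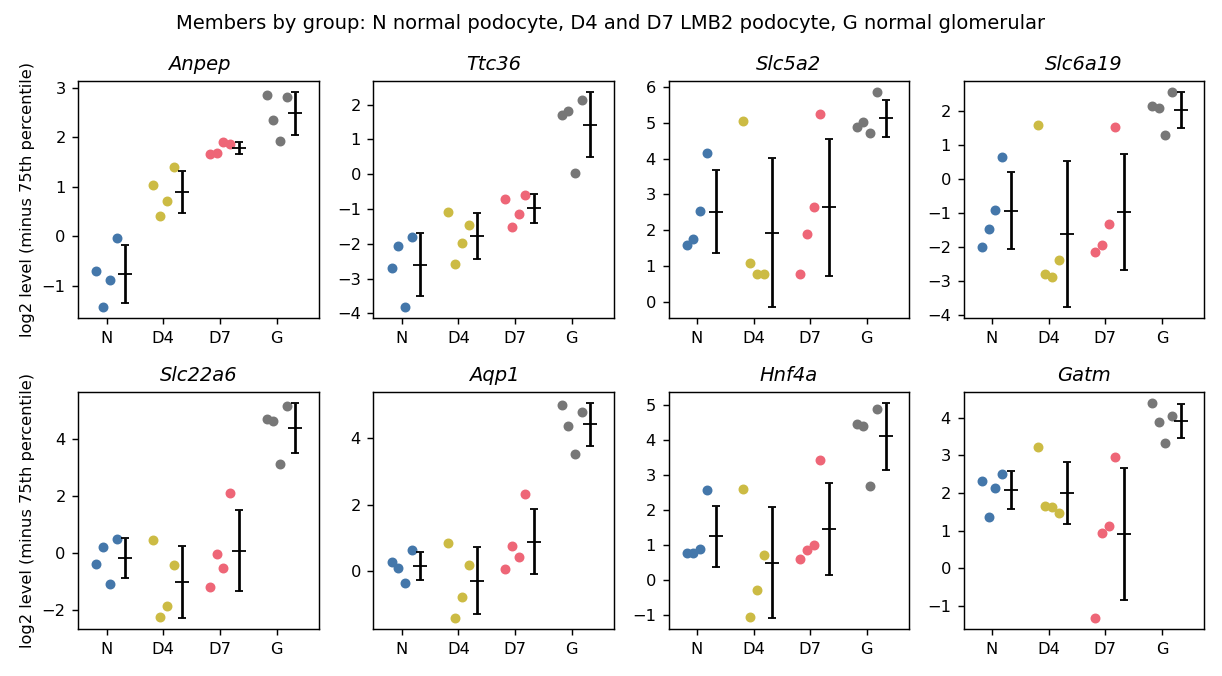
Log2 levels of 8 members by group, each point 1 array and each bar the mean ± SD (n = 4), on separate vertical scales. Anpep climbs through the podocyte groups without overlap, while Slc5a2, Slc6a19 and Hnf4a each show 1 high array per podocyte group.

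A second list of 79 proximal tubule genes, none of them members, was measured for 72. In normal podocyte RNA against glomerular RNA 63 were lower and 6 were higher, and the median was -3.09. Of all genes 27.5% were called lower and 51.6% higher. The 6 higher in podocyte RNA were Enpep (2.46 ± 0.17), Mme (2.37 ± 0.16) and Dpp4 (2.36 ± 0.12), peptidases that podocytes are also known to carry, with Dab2, Glud1 and Acaa1b at 0.85, 0.30 and 0.44. At day 4, 3 of the 72 rose and 1 fell (median -0.36), fewer than the 12.4% of all genes called higher and 19.9% lower. Slc6a13, a GABA carrier, rose by 1.62 ± 0.33, Cyp27b1, which activates vitamin D, by 1.76 ± 0.50 and Dab2, an endocytic adaptor, by 0.58 ± 0.09, while Dpp4 was lower at -0.64 ± 0.12 (adjusted p from 0.000271 to 0.0151). At day 7, 4 of the 72 rose and 5 fell (median -0.04), again fewer than the 21.6% of all genes called higher and 36.7% lower. Slc6a13 (1.41 ± 0.33), Slc7a7, a carrier of basic amino acids (1.53 ± 0.52), Cyp4a10 (1.67 ± 0.64) and Cyp27b1 (1.33 ± 0.50) rose. Enpep, an aminopeptidase like Anpep, was lower than in normal podocytes at -1.60 ± 0.17, and Aspa, Dpp4, Slc37a4 and Acaa1b were the other 4 that fell. Adjusted p for the 5 genes given with their values at day 7 ran up to 0.0357, over all genes tested.

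Some lists of markers of other cells shifted in summed level after LMB2, while the sums of others, such as endothelial markers, overlapped between the podocyte groups. An overlap of sums does not show that a list was steady. The part of other cells in the members' values was not tested. For the distal nephron, 18 of 19 markers were measured, and their summed level ran from 50.4 to 94.3 in normal podocytes, 51.5 to 123 at day 4, 41.4 to 159 at day 7 and 388 to 630 in glomeruli. The high array of each podocyte group was also the highest in the mean of this list, at 0.36 (normal array 4), 0.50 (day 4 array 1) and 0.96 (day 7 array 4) above the normal podocyte mean, less than the members' 1.1, 1.54 and 2.08. Day 4 array 1 was also the highest of its group in the mean of the leukocyte markers (1.36, against at most 0.24 on the others), the red blood cell markers (1.33, against at most -0.98) and the endothelial markers (0.05, against at most -0.56). Day 7 array 4 was the highest of its group for endothelial (0.31) and mesangial (1.41) markers, and normal podocyte array 4 for none of these 4 lists. The counts that follow stand against 12.4% of all genes higher and 19.9% lower at day 4, and 21.6% higher and 36.7% lower at day 7. Of 6 measured tubule injury genes 6 rose at day 7 and 1 at day 4, and their summed level was 9.32 to 14.6 in normal podocytes, 13 to 18.0 at day 4 and 47.2 to 50.6 at day 7. Clu made up 79.8% to 91.7% of that sum at day 7. The other 5 summed to 2.05 to 2.72 in normal podocytes, 2.52 to 4.24 at day 4 and 4.18 to 9.56 at day 7. Parietal epithelial markers, 7 of 8 measured, had 6 higher and 1 lower at day 7. Of their sums, Krt7 made up 65.1% to 82.9% in normal podocytes and Akap12 78.1% to 88.9% at day 7. These sums were 28.8 to 38.0 in normal podocytes, 20.7 to 30.5 at day 4 and 52.3 to 232 at day 7. Mesangial and smooth muscle markers, 13 of 13 measured, had 5 higher at day 7, with sums of 28.9 to 42.1, 51.3 to 83.2 and 809 to 1100 in the same order. Tagln, a smooth muscle actin-binding protein, made up 96.1% to 97.7% of that sum at day 7 and 69.1% to 82.8% at day 4, and the other 12 summed to 15.8 to 24.1, 13 to 17.5 and 22.1 to 31.4. The median mesangial and smooth muscle marker differed from normal podocytes by -0.62 at day 4, with 3 lower and 1 higher, and by 0.45 at day 7. Endothelial markers, 15 of 15, summed to 61.5 to 114, 43.2 to 75 and 67.2 to 98.0. Against normal podocytes 0 of the 15 were higher and 3 lower at day 4 (median -0.55), and 3 higher and 2 lower at day 7 (median 0.17). For day 7 against day 4, 6 were higher and 1 lower (median 0.68), where 13.2% of all genes were called higher and 20.7% lower. Leukocyte markers, 14 of 14, summed to 24.0 to 34.6, 31.8 to 35.8 and 18.1 to 31.1. Itgam made up 57.8% to 76.3% of the leukocyte sums in the podocyte groups. Red blood cell markers, 5 of 6, summed to 2.79 to 4.85, 1.11 to 9.36 and 0.60 to 1.34, and 4 of the 5 were lower at day 7. Podocyte markers, 19 of 20, summed to 3096 to 3385, 2492 to 3084 and 1816 to 2108, and 15 of them fell at day 7.

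Transcripts of the Y chromosome split the arrays within each group, and the labels give no sex. Ddx3y, an RNA helicase, and Eif2s3y, a translation factor subunit, were well above background on the same 9 of 16 arrays. These were arrays 2, 3 and 4 of normal podocytes and of glomeruli, array 1 of day 4, and arrays 3 and 4 of day 7. Ddx3y levels there were 1.48 to 3.24, and elsewhere at most -6.36. In each podocyte group the arrays with Ddx3y had higher means of the members than those without it, whereas glomerular array 1, without it, lay at 3.64 within its group's range. Of 2 probes for Xist, the RNA of the inactive X chromosome, 1 was well above background on glomerular array 1 alone and the other on 0 of 16 arrays, so the other arrays without Ddx3y lacked both signals and no sex was assigned. Kap follows androgen in mouse kidney, and Cyp2e1, Cyp4b1, Slc7a13 and Slc22a7 were also listed as sex-biased there. Kap was at 0.96 on normal array 1, without Ddx3y, and at 3.41 to 5.16 on the others. Kap was at -0.65 to 0.61 on day 4 arrays 2 to 4, at 0.21 and 0.30 on day 7 arrays 1 and 2, and at 5.82 on glomerular array 1, against 8.0 to 8.58 on the other glomerular arrays. Cyp2e1, too, was lowest in each group on the arrays without Ddx3y, with 1.76, -3.27, -2.78 and -1.51 at day 4 and -1.17, -2.0, 0.82 and 3.12 at day 7. The same was true of Cyp4b1 and of Slc7a13, which was dim on most arrays. Slc22a7 did not split this way at day 7 (-3.24, -4.26, -3.88 and -1.46) or in glomeruli (0.33, 0.10, 0.20 and 1.62). Lrp2 did not split this way in normal podocytes (1.27, 1.00, 1.31 and 2.36) or glomeruli (5.63, 4.88, 3.85 and 5.30). Ddx3y was well above background on 1 of the 4 day 4 arrays and on 3 of the 4 normal podocyte arrays, and its part in the differences between groups was not tested.

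**Figure D5:**
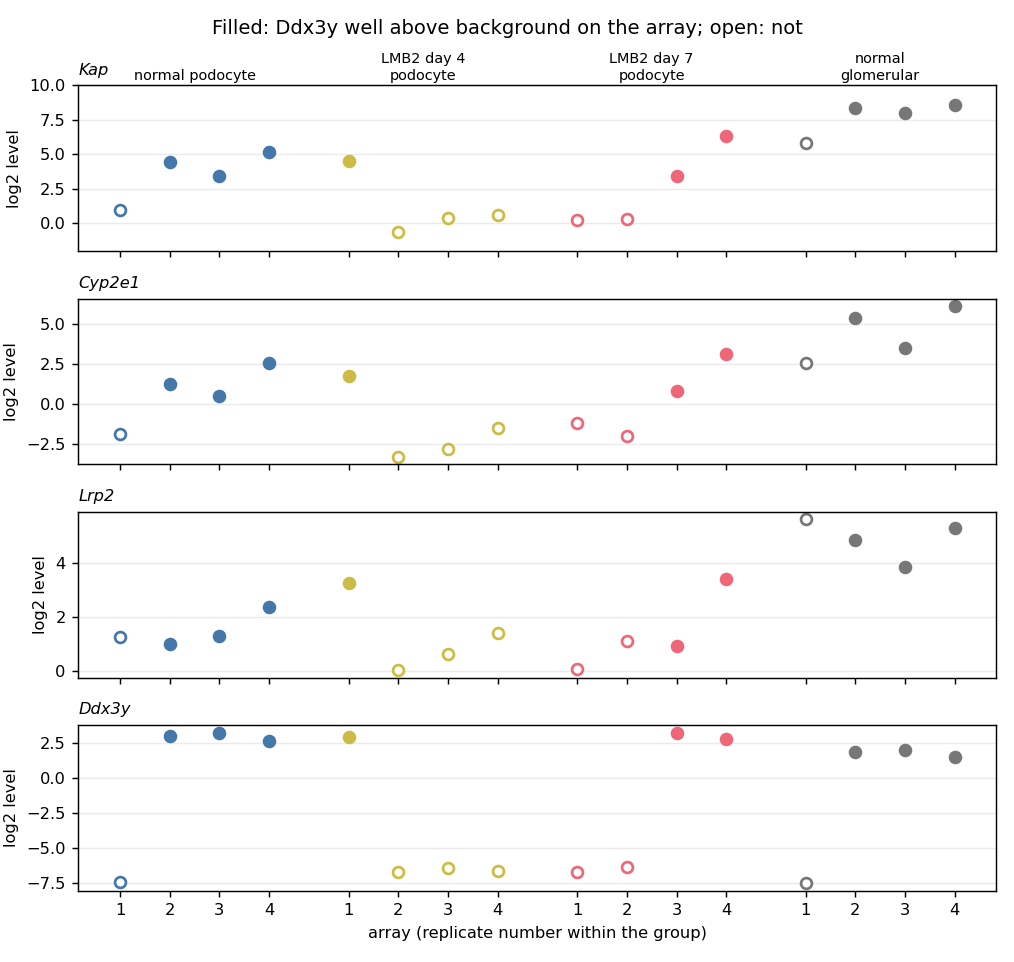
Log2 levels of Kap, Cyp2e1, Lrp2 and the Y-linked Ddx3y on each of 16 arrays, with filled points where Ddx3y was well above background. Within every group the open points are the lowest for Kap, at most 0.96 on podocyte arrays and 5.82 on glomerular array 1.

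Other genes rose and fell with the members from array to array. Over the 12 podocyte arrays centred on group means, 268 of the 14531 other genes (1.84%) had a Pearson r above 0.9 with the mean of the members. They included 37 of the 72 measured genes of the second tubule list, 1 of 18 distal nephron and 0 of 19 podocyte markers. Among the highest were Slc18a1 (r = 0.99), Gcnt1, Slc25a48, Dao, Slc26a1, Glyat, Slc2a5, Alpl and Dnase1. Alpl, the tissue non-specific alkaline phosphatase, was 0.88, 2.27 and 1.89 above its group mean on the 3 high arrays. These values share their arrays with the members and describe likeness over arrays only.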

How the data were processed

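Per the labels and file headers, each of 16 samples was hybridised with Cy3 to a 1-colour Agilent array and read with Feature Extraction 11.5.1.1, per the submitters' processing notes. The deposited scanner files hold a processed intensity for each spot on a linear scale, background-subtracted but not normalized between arrays, with spot and local background medians in intensity units. The authors also deposited a table of log2 values for 39430 probes. Its columns are shifts of the log2 processed intensity with medians of -3.17 to -2.51, and the centring behind the shift is not given in the sources used here. For 6 columns the matching scanner file belonged to a different replicate within the group. Arrays were named as the scanner files are.

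Control and outlying spots were left out, and spots of a probe were averaged (55681 probes). A RefSeq gene table, joined on unversioned accessions, named 26582 probes. Probes were kept if some group had all 4 of its arrays well above background, 19048 after 58 with a missing array were set aside, and the probe with the highest mean stood for a gene. Of the 7 members with 2 probes each, all but Slc5a12 have the second probe in the alternative that averages probes. The second Slc5a12 probe lacked a value on day 4 array 1 and was left out. Against normal podocytes its day 4 difference was -1.32 on the arrays that held it. All 16 arrays entered 1 limma 3.58.1 fit in R 4.3.3 (group only, 12 residual degrees of freedom), read with Python 3.11.15, and a gene was called at an adjusted p under 0.05. The script was tested on simulated data. The number of arrays limits the precision.

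Normal podocyte and glomerular arrays of the same number deviated together (r from 0.42 to 0.51, against -0.28 to -0.07 for other numbers), so the numbers pair these, while in the other comparisons they did not all do so. Named members were the highest and lowest of each role in podocyte against glomerular RNA, every member called between podocyte groups, and the 3 shares farthest from the median on each side. The members, the other lists (the second tubule list, distal nephron, tubule injury, parietal, mesangial and smooth muscle, endothelial, leukocyte, red blood cell and podocyte markers) and these rules were chosen with earlier results of these data known. Promoter windows are those of RefSeq, GRCm38.p6. Alternatives were other background corrections and scalings, other filters, probe averaging, the authors' table, array weights, the replicate block, fits within a slide and leaving out arrays.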

Additional observations from a re-analysis of the deposited data

Results flagged for a closer look

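Within a group of 4 arrays, the highest or lowest array stood apart from the others in 16 of 140 sets of values (34 members and their mean in 4 groups), by a gap to the nearest array above Dixon's critical share of the whole range. Chance flags about 1 in 20 such groups, and the members share arrays, so these are not independent.

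Of the sets with a high array, 8 lay on day 4 array 1: Slc34a1 (5.38), Slc5a2 (5.04), Spp2 (4.12), Gatm (3.22), Slc5a12 (2.84), Keg1 (1.76), Slc6a19 (1.59) and Dpep1 (1.48), all log2 levels. On normal podocyte array 4 they were Fbp1 (4.54), Pdzk1 (3.7), Hnf4a (2.57) and Keg1 (1.13), and on day 7 array 4 Hnf4a (3.43). These are the arrays that stood highest in the mean of the members. In glomerular RNA, Slc5a12 (2.98) and Cubn (1.96) were low on array 3 and Slc22a7 (1.62) was high on array 4.

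Transcripts of the Y chromosome, outside the comparisons because the filter on dim probes or the member list left them out, were well above background on 9 of 16 arrays for Ddx3y and on 9 for Eif2s3y. The labels give no sex, and the part of sex in the members' values was not tested.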

How the results depend on the processing

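In podocyte against glomerular RNA the count of lower members was 34 in every other scaling, correction and weighting run and with the replicate block, 35 with no filter on dim probes or with missing spots allowed, 32 with probes above background on all 16 arrays, and 31 to 34 leaving out 1 array (median difference -3.78 to -3.20). Without 1 array the count at day 4 was 1 higher and 0 to 1 lower (median -1.37 to -0.21), at day 7 it was 2 higher and 0 to 2 lower (median -0.74 to 0.43), and for day 7 against day 4 it was 0 to 6 higher and 0 to 1 lower (median -0.13 to 1.38). Array weights gave 5 lower members at day 4 and 2 higher for day 7 against day 4. Without the 3 high arrays, added after the data were seen, there were 5 lower at day 4, 2 lower at day 7 and 2 higher for day 7 against day 4. The share of all genes called is not given here for either of these alternatives. Normexp correction with quantile scaling left 1 higher at day 7. For day 7 against day 4, array medians set to 0 gave 0 higher, and the replicate block in all 16 arrays gave 2, adding Aqp1. In the authors' table glomerular arrays 2 and 3 had member means of 2.45 and 3.64, since its columns match other replicates. No slide block could be fitted between LMB2 and normal groups, which lie on separate slides. The cause of the other moves was not tested. Probes near background, as for Slc22a8, Napsa and Slc7a13, limit what can be seen of low members.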
